A study of Homo sapiens with 4 samples.

Results

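FAM72A, FAM72B, FAM72C and FAM72D are copies of one gene on human chromosome 1, and 3 of them lie beside a copy of SRGAP2 that the arrays also measured: FAM72A beside SRGAP2, FAM72D beside SRGAP2B and FAM72B beside SRGAP2C. These 7 genes and the SRGAP2 relatives SRGAP1 and SRGAP3 were taken by symbol from a table of 17687 named genes, and all 9 were measured, each by 1 array feature, so that no choice between features was needed. The family was selected on its measured values: FAM72A, FAM72C and FAM72D were already known to be among the strongest falls of MK-8776 against DMSO on these 4 arrays, and the SRGAP genes were added as neighbours or relatives. Total RNA came from NB4-R4 cells, an acute promyelocytic leukaemia line that does not respond to all-trans retinoic acid and is called a subclone by the submitters. Of 4 Affymetrix arrays, 2 held RNA from cells given the CHK1 inhibitor MK-8776 at 4 µM for 96 h and 2 held RNA from cells given the vehicle DMSO for 96 h. Both groups were the same line in the same medium, and the labels name no genetic change in either. Replicates are described as biological, with nothing said of how the cultures were kept apart, so p-values reflect only the scatter among these samples.

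FAM72A encodes a small protein that binds the uracil-DNA glycosylase UNG2 and lowers its amount, and in mouse B cells it is needed for antibody class switching. Humans carry extra FAM72 copies that arose together with the extra SRGAP2 copies, whereas most other mammals carry a single FAM72 gene next to a single SRGAP2 gene. FAM72 RNA is known from dividing cells such as neural progenitors. SRGAP2 encodes a GTPase-activating protein with a membrane-bending F-BAR domain, best known for its part in neuron migration and synapse maturation. SRGAP2B and SRGAP2C are partial copies, and the SRGAP2C protein pairs with SRGAP2 and blocks it. SRGAP1 and SRGAP3 are full-length relatives that were named for the SLIT-ROBO guidance pathway.

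Values are RMA expression on the log2 scale. Changes are MK-8776 minus DMSO on that scale, with the standard error (SE) of a limma fit over all 17687 genes. The arrays correlated at 0.993 within MK-8776, 0.993 within DMSO and 0.981 to 0.989 between groups. The median of all values was 5.77 and their lower quartile 3.97. MPO, the myeloperoxidase gene of promyelocytes, measured 14.81 and 15.36 in MK-8776, against 16.09 and 16.27 in DMSO. CTSG and PRTN3, genes of granule proteases, fell by 2.20 and 2.00 (adjusted p = 0.00516 and 0.0193, limma). The other 4 of the 6 measured promyelocyte and myeloid markers missed the threshold. Of 6 measured markers of other blood lineages, CD3E, a T cell receptor chain gene, fell by 1.38 (adjusted p = 0.0264, limma). The other 5 missed the threshold, and at any p 4 of the 6 were higher in MK-8776 and 2 lower. HBB, a haemoglobin gene, was higher by 0.775, at 4.53 and 4.57 in MK-8776 and 3.92 and 3.63 in DMSO (adjusted p = 0.0934, limma). Over all genes 2.02% were called as lower, and nothing is read from these small counts. CD79A, a B cell receptor chain gene, was not low, at 9.47 and 9.75 in MK-8776 and at 9.73 and 9.65 in DMSO. CD3E also lay above the median of all values, at 6.72 and 6.79 in MK-8776 and at 8.44 and 7.83 in DMSO. Summed over the 6 markers the other lineages gave 33.2 and 34.08 in MK-8776 and 34.63 and 32.96 in DMSO, and the myeloid markers gave 48.58 and 51.72 in MK-8776 and 54.72 and 58.73 in DMSO. The part of the myeloid markers' lower sum in the results below was not tested.

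The promoters of the copies are shown first, because FAM72 and SRGAP2 start close together and face away from each other, yet their values differ. FAM72A (feature TC0100017094.hg.1, chromosome 1, 206186179 to 206205773, GRCh38) and SRGAP2 (TC0100011364.hg.1, 206203541 to 206464436) start 702 bases apart, on opposite strands. FAM72D (TC0100009723.hg.1, 145094296 to 145112696) and SRGAP2B (TC0100015572.hg.1, 144887288 to 145095380) start 594 bases apart. FAM72B (TC0100015509.hg.1, 121167646 to 121184340) and SRGAP2C (TC0100009658.hg.1, 121184975 to 121392874) leave 634 bases between their spans. FAM72C (TC0100015550.hg.1, 143955287 to 143973564) overlaps SRGAP2D, a transcribed pseudogene (143972639 to 144069704) that was not analysed here. Some annotated FAM72A, FAM72C and FAM72D transcripts start inside the SRGAP2 copy, and the windows below belong to the first start outside it. Each runs 5′ to 3′ from 250 bases before to 50 after an annotated start (RefSeq, GRCh38.p14), with motif letters in capitals.
FAM72A, minus strand, chr1:206202790-206203089: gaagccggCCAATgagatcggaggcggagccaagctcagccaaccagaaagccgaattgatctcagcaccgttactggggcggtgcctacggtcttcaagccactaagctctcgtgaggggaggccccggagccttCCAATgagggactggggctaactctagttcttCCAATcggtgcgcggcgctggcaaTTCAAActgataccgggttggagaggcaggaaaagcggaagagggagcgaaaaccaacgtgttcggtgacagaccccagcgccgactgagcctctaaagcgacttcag
FAM72D, plus strand, chr1:145095724-145096023: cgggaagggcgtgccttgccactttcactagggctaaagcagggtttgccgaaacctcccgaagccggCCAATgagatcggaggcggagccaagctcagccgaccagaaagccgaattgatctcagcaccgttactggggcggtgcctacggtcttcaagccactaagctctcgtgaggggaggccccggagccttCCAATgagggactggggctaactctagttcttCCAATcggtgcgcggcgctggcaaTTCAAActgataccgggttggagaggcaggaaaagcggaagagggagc
SRGAP2, plus strand, chr1:206203291-206203590: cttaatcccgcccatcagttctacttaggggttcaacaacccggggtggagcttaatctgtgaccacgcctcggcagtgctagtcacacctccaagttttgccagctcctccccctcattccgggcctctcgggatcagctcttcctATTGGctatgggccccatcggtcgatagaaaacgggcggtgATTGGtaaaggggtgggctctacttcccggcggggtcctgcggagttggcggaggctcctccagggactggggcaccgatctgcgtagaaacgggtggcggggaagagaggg

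The capitals mark CCAAT, the CCAAT box, and TTTGAA, the cell cycle genes homology region (CHR), which is known from promoters of genes used in G2 and mitosis. Both strands were searched, so that CCAAT also appears as ATTGG and TTTGAA as TTCAAA, and no match of one overlaps a match of the other. The FAM72A, FAM72C and FAM72D windows each held 3 CCAAT letters and 1 CHR, whereas the SRGAP2, SRGAP2B and SRGAP2C windows held 2, 3 and 2 CCAAT letters and 0 CHR letters. The SRGAP1 and SRGAP3 windows held neither. Of all 35116 promoter windows in the table, 15.2% held a CHR, 34.6% a CCAAT box, 5.9% both, and 1.78% a CHR with at least 2 CCAAT boxes. Of 23 windows of the cell division genes described further on, 56.5% held a CHR and 39.1% a CHR with at least 2 CCAAT boxes. E2F letters (TTTCCCGC, TTTCGCGC, TTTGCCGC or TTTGGCGC, either strand) were in 3.31% of all windows. They were in 0 of 8 member windows, 1 for each member matched to the promoter table (all but FAM72B), which at that share is no departure. Counts in other annotated windows of these members are not given. These matches describe letters and do not show that any factor binds there.

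The copies hardly differ in this stretch. Over 269 shared bases the FAM72A and FAM72C windows differed at 1 base, A42G, counted from 1 at the 5′ end of the FAM72A window, with the FAM72A base first. The same A42G was the 1 difference between FAM72A and FAM72D over 240 bases, and FAM72C and FAM72D were equal over 271. SRGAP2 and SRGAP2B were equal over 252 bases. SRGAP2 and SRGAP2C matched at 248 of 269 bases when set against each other without gaps. The SRGAP2C window holds a short stretch that SRGAP2 lacks. Bases after it fall out of step, so that count understates the likeness. FAM72 transcripts and SRGAP2 transcripts are also known to be near-identical between copies, as background, and transcript and probe sequences were not compared here. The copy behind each feature's signal is therefore uncertain, and the 4 FAM72 features cannot be counted as 4 independent measurements.

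**Figure D1:**
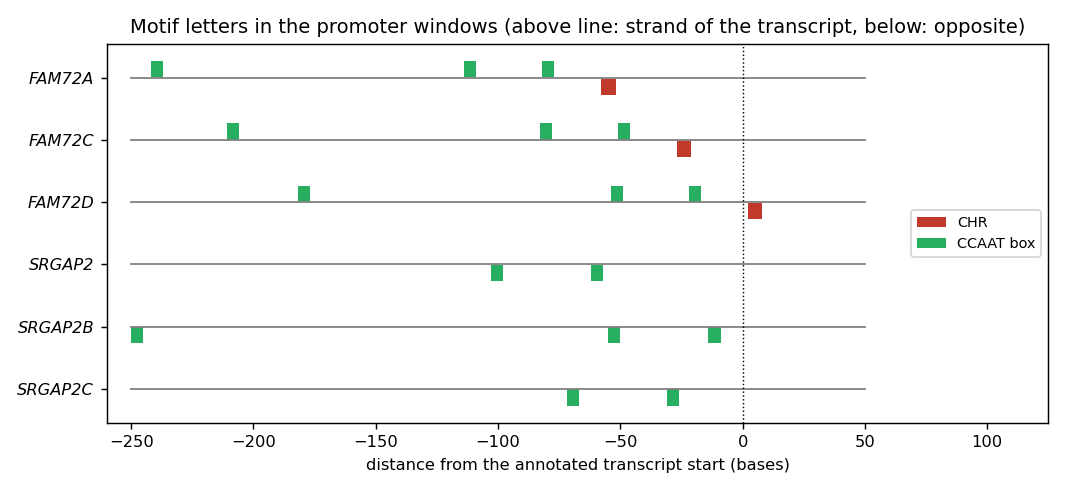
Positions of the CHR letters (red) and CCAAT letters (green) in the promoter windows of 3 FAM72 copies and 3 SRGAP2 copies, in bases from the annotated transcript start at 0; marks above a line lie on the strand of the transcript and marks below it on the opposite strand. The 3 FAM72 windows share 1 pattern of 3 CCAAT boxes and 1 CHR, shifted because their annotated starts differ, and the SRGAP2 windows show 0 CHR.

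All 4 FAM72 copies were lower in MK-8776 than in DMSO, by 6.00- to 7.04-fold. FAM72A, which encodes the UNG2-binding protein, measured 8.76 and 9.0 in MK-8776, against 11.61 and 11.50 in DMSO. FAM72B measured 8.72 and 9.04 in MK-8776, against 11.55 and 11.38 in DMSO. FAM72C measured 9.16 and 9.49 in MK-8776, against 11.97 and 11.91 in DMSO. Both MK-8776 arrays lay well below both DMSO arrays for each of these copies, and MK-8776 replicate 1 was the lowest array each time. FAM72D, the copy with the largest change, measured 8.41 and 8.71 in MK-8776, against 11.36 and 11.39 in DMSO. In every copy the groups were thus apart, with a gap of 2.34 to 2.65 between the nearest arrays of the groups. Both MK-8776 arrays lay below both DMSO arrays in 24.2% of all genes, so nothing is read from the separation alone.

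FAM72A averaged 8.88 ± 0.17 in MK-8776 and 11.56 ± 0.08 in DMSO (SD, n = 2 each), a change of -2.68 (SE 0.21). The changes of FAM72B, FAM72C and FAM72D were -2.58 (SE 0.22), -2.62 (SE 0.22) and -2.82 (SE 0.21). The changes of the copies thus lay within 0.23 of one another. All copies were read on the same arrays, so the SE of a single change does not measure the spread between copies. Ranked from the most negative change of the 17687 genes, FAM72D stood at 4, FAM72A at 9, FAM72C at 11 and FAM72B at 13. Because FAM72 copies were picked for their fall in this contrast, these values are a description and no p-value is given for them. The limma fit called 4 of 4 as lower at an adjusted p under 0.05, against 2.02% of all genes called as lower, and nothing is read from that count. The changes of the copies stayed between -2.96 and -2.42 when each array was left out in turn. Calls in those fits, which leave 1 array in a group, are given at the end beside those of all genes. In RNA of whole cultures, fewer cells that express FAM72 and less FAM72 RNA per cell cannot be told apart.

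**Figure D2:**
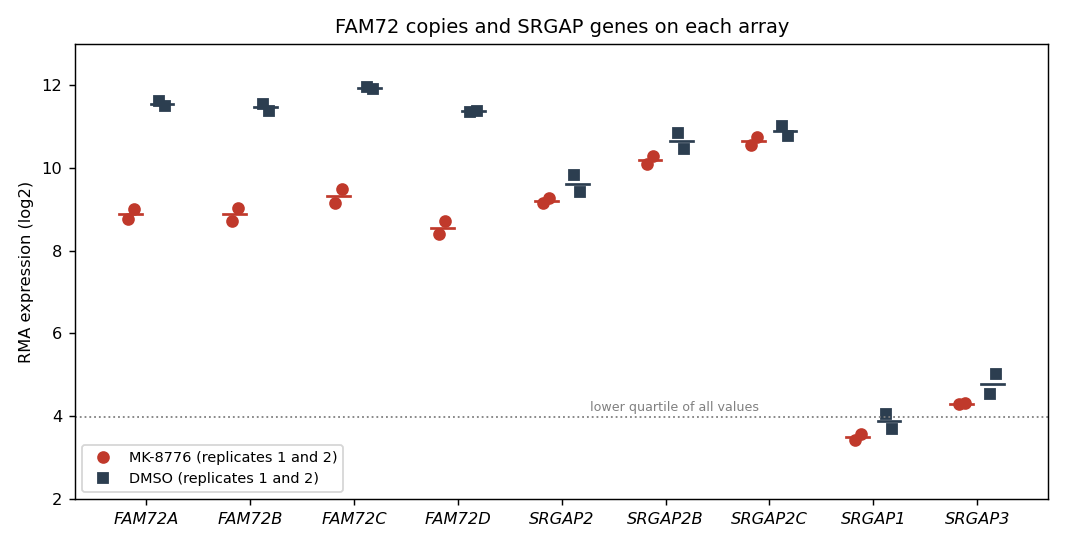
RMA expression (log2) of the 9 genes on each array, with MK-8776 as red circles left of DMSO as dark squares and a line at each group's mean (n = 2 each). The FAM72 copies are separated by at least 2.34 between groups, whereas the groups of the SRGAP genes lie 0.03 to 0.23 apart at their nearest arrays.

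The SRGAP2 copies, next to the FAM72 copies, showed no change that passed the test. SRGAP2 measured 9.16 and 9.27 in MK-8776, against 9.82 and 9.41 in DMSO. SRGAP2B measured 10.11 and 10.30 in MK-8776, against 10.85 and 10.45 in DMSO. SRGAP2C, whose protein blocks SRGAP2, measured 10.56 and 10.74 in MK-8776, against 11.02 and 10.77 in DMSO. In all 3 the MK-8776 arrays were the lower ones, but the gap to the nearer DMSO array was 0.14, 0.15 and 0.03, and the 2 DMSO arrays differed more from each other than that. The change was -0.40 for SRGAP2 (95% interval -0.92 to 0.12, adjusted p = 0.4, limma). It was -0.44 for SRGAP2B (95% interval -0.97 to 0.08, adjusted p = 0.348, limma) and -0.24 for SRGAP2C (95% interval -0.74 to 0.25, adjusted p = 0.615, limma). None of these intervals reached the size of the FAM72 changes, and none left out a change of 0.

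SRGAP1 and SRGAP3, which lie on chromosomes 12 and 3 with no FAM72 copy beside them, were dim. SRGAP1 (TC1200007992.hg.1) measured 3.43 and 3.57 in MK-8776, against 4.06 and 3.69 in DMSO, and both group means were below 3.97, the lower quartile. SRGAP3 (TC0300013932.hg.1) measured 4.29 and 4.31 in MK-8776, against 4.54 and 5.03 in DMSO. At such levels the arrays say little about either gene. Their changes were -0.38 (95% interval -0.89 to 0.14, adjusted p = 0.429) and -0.48 (95% interval -1.02 to 0.05, adjusted p = 0.316, limma). Of the 5 SRGAP genes 0 passed the limma fit, against 3.69% of all genes, and 0 had an unadjusted p under 0.05 (3331 of 17687 over all genes). In 5 of 5 both MK-8776 arrays lay below both DMSO arrays, as they did in 24.2% of all genes. The changes of the SRGAP genes ran between -0.73 and -0.12 when each array was left out in turn.

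**Figure D3:**
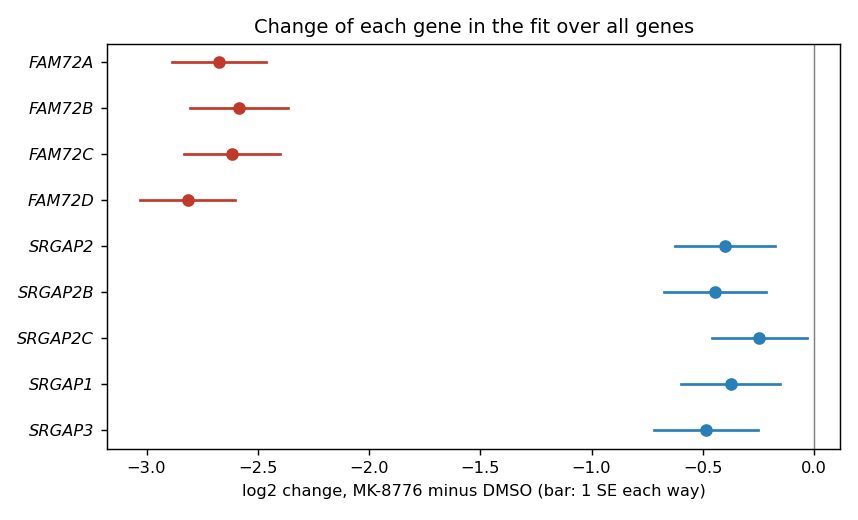
Log2 change, MK-8776 minus DMSO, of each gene in the limma fit, with a bar of 1 SE to each side; FAM72 copies are red and SRGAP genes blue. The FAM72 copies lie between -2.82 and -2.58 and the SRGAP genes between -0.48 and -0.24.

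Neighbours that share the stretch between their starts thus had unequal changes. Within an array, the FAM72A value minus the SRGAP2 value was lower in MK-8776 than in DMSO by 2.28 on the log2 scale, with an SD within groups of 0.16. For FAM72D and SRGAP2B the difference of changes was -2.37, with an SD within groups of 0.22. For FAM72B and SRGAP2C it was -2.34, with an SD within groups of 0.08. All 3 differences of changes exceeded this spread, and they ran from -2.58 to -2.12 when each array was left out in turn. They are descriptions, since the FAM72 side was chosen for its fall, and with 2 arrays against 2 an exact permutation test cannot go below p = 0.333.

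The root mean square difference between gene-centred values over the 4 arrays was 0.04 to 0.14 for the 6 pairs of FAM72 copies and 0.04 to 0.11 for the 3 pairs of SRGAP2 copies. It was 1.07 to 1.29 for the 20 pairs of a FAM72 copy with an SRGAP gene. SRGAP1, dim and on another chromosome, was at 0.022 from SRGAP2, closer than SRGAP2B at 0.036 or SRGAP2C at 0.099, so a small difference is not particular to copies. By the same measure, the genes outside the families most like the mean of the FAM72 copies were KIF20A, a kinesin of cell division, at 0.144, the metallothionein genes MT1B and MT2A, which have close copies, at 0.191 and 0.198, NRN1, which encodes neuritin, at 0.21, and IFIT1, an interferon-induced gene, at 0.231. KIF20A measured 4.34 and 4.93 in MK-8776, against 7.55 and 7.21 in DMSO. Its MK-8776 values were about as dim as those of SRGAP3, so the size of its change is less certain. The same holds for IFIT1, at 4.52 and 4.69 in MK-8776. The genes most like SRGAP2 were TMEM225, CIITA, INTS7, PTER and SHQ1, at 0.017 to 0.019. TMEM225 and CIITA were dim, at 3.29 to 3.93 and at 3.94 to 4.6 over the 4 arrays. These likenesses rest on 4 arrays that differ mainly by treatment, and many genes share such a pattern.

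The share of calls among the other genes around FAM72A was near that of all genes. Of 142 annotated genes within 500 kb of a FAM72 copy, 17 were measured with a name, 13 of them around FAM72A, and the other copies had 4 in all. Of the 13 around FAM72A, 0 passed the limma fit, against 3.69% of all genes, a share at which 0 of 13 is no departure from the background. In 6 of the 13 both MK-8776 arrays lay below both DMSO arrays (24.2% of all genes). In 2 of the 13 both lay above (4245 of 17687 genes). Among the 13, 1 had an unadjusted p under 0.05 (3331 of 17687 over all genes). Values were lower in MK-8776 for 9 of the 13 and higher for 4, and their median change was -0.27, against 0.005 for all genes. Their changes ran from -0.72 for EIF2D, a translation initiation factor gene (unadjusted p = 0.0618), to 0.53 for RAB7B, a gene of a small GTPase of vesicle traffic. SLC41A1, a magnesium transporter gene, had an unadjusted p of 0.0195 at -0.71 (adjusted p = 0.164, limma). Of all 17 neighbours 1 fell, against 2.02% of all genes, and nothing is read from a count of 1. That gene was FCGR1BP, a pseudogene related to the high-affinity IgG receptor gene, near FAM72B. It measured 6.52 and 7.86 in MK-8776, against 8.84 and 9.71 in DMSO, and changed by -2.08 (SE 0.44), with an adjusted p = 0.0413 (limma). Its arrays were spread within both groups, it has close relatives elsewhere, and the call was lost when all features were tested (adjusted p = 0.0515). The call was also lost without MK-8776 replicate 1 (adjusted p = 0.319), MK-8776 replicate 2 (0.0822), DMSO replicate 1 (0.257) or DMSO replicate 2 (0.49), and the change then ran from -2.76 to -1.42.

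**Figure D4:**
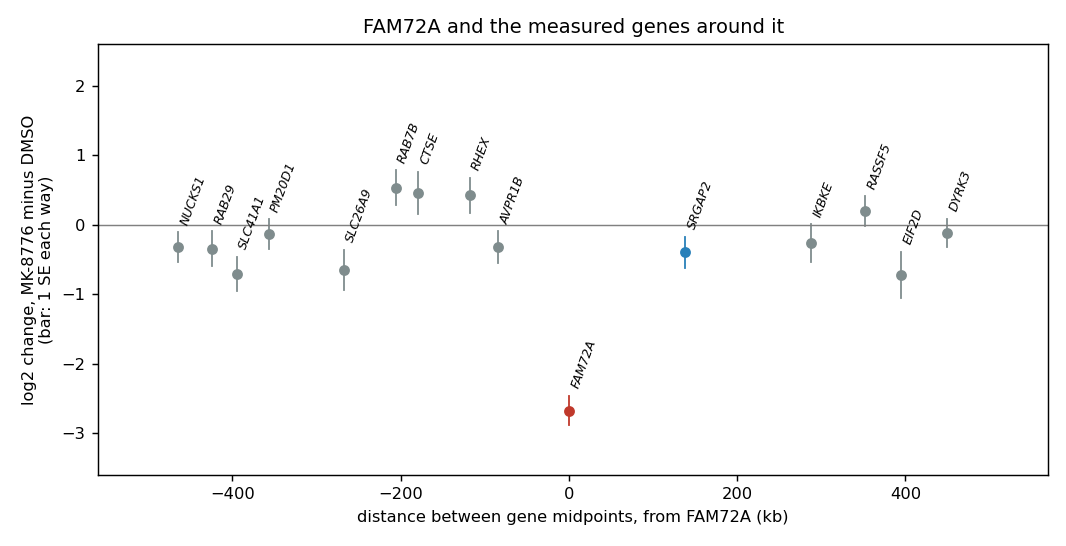
Log2 change, MK-8776 minus DMSO, of FAM72A (red), SRGAP2 (blue) and the 13 measured genes around them (grey), against the distance of each gene's midpoint from that of FAM72A in kb, with a bar of 1 SE to each side. FAM72A stands at -2.68, SRGAP2 at -0.40 and the other genes between -0.72 and 0.53.

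The share of calls in other families with recent copies, most of them on chromosome 1, was near that of all genes too. Of 16 measured genes of the NOTCH2NL, NBPF and GPR89 families and their relatives, 0 passed the limma fit, against 3.69% of all genes, which at 16 genes is no departure from that share. Of the 16, 1 had an unadjusted p under 0.05 (3331 of 17687 over all genes), and the median change was -0.05. NBPF15, which lies near FAM72C, measured 10.22 and 10.39 in MK-8776, against 11.04 and 10.91 in DMSO, a change of -0.67 (adjusted p = 0.128, limma). NBPF8 stood at -0.58 (adjusted p = 0.328, limma). NOTCH2NLA, a human-specific copy of part of the Notch receptor gene NOTCH2, measured 10.24 and 10.47 in MK-8776, against 10.22 and 10.50 in DMSO.

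Genes of G2 and mitosis fell in most cases. Among the 21 genes on the arrays 19 fell, against 2.02% of all genes. With the replicate block 12 fell, against 176 of 17687 over all genes. In the fit without the block 0 rose, AURKA at -0.82 and UBE2C at -0.06 missed the threshold, and the list had a median change of -1.59, against 0.005 over all genes. KIF20A fell by 2.74, NEK2, a centrosome kinase gene, fell by 2.03, and CCNB2, a cyclin B gene, and DLGAP5, a spindle gene, fell by 2.00 each (adjusted p = 0.00262, 0.00332, 0.012 and 0.00374, limma). NEK2 measured 6.6 and 6.5 in MK-8776, against 8.54 and 8.62 in DMSO. The change of each FAM72 copy was more negative than that of every gene on this list except KIF20A, whose change lay within their range. FAM72A, FAM72C and FAM72D were picked for their fall on these arrays, so nothing is read from this order. The fall of this list was known before from these arrays, so it is no independent support. With each array left out in turn, the median change of the list ran from -1.95 to -1.375. Calls in those fits are given at the end beside those of all genes.

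Of the genes around UNG2, the partner of the FAM72A protein, APOBEC3B and PARP1 passed. UNG itself measured 6.65 and 6.90 in MK-8776, against 6.26 and 7.25 in DMSO, so that the groups overlapped and the change was 0.02 (unadjusted p = 0.952). Of 17 measured genes on the uracil repair list, 2 fell, against 2.02% of all genes, and 0 rose. The list also holds APOBEC3B, which is not a repair gene, so PARP1 was the only repair gene called. Of the 17, 8 had an unadjusted p under 0.05 (3331 of 17687 over all genes) and 11 had both MK-8776 arrays below both DMSO arrays (24.2% over all genes). Their median change was -0.44, against 0.005. APOBEC3B, which encodes a cytosine deaminase that puts uracil into DNA, measured 6.29 and 6.63 in MK-8776, against 7.60 and 7.94 in DMSO, with a change of -1.31 (adjusted p = 0.0247, limma). PARP1, a strand-break sensor gene, measured 9.79 and 9.66 in MK-8776, against 10.55 and 10.85 in DMSO. It fell by 0.98 (adjusted p = 0.0492, limma), a call lost in 4 other settings: quantile normalization (adjusted p = 0.0565), all features tested (0.0597), median centring (0.0519) and the replicate block (0.0884). The other glycosylase genes SMUG1, TDG and MBD4 had changes of -0.18, 0.06 and 0.40 and did not pass. The median change of this list ran from -0.625 to -0.255 when each array was left out in turn. Calls in those fits are given at the end beside those of all genes.

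**Figure D5:**
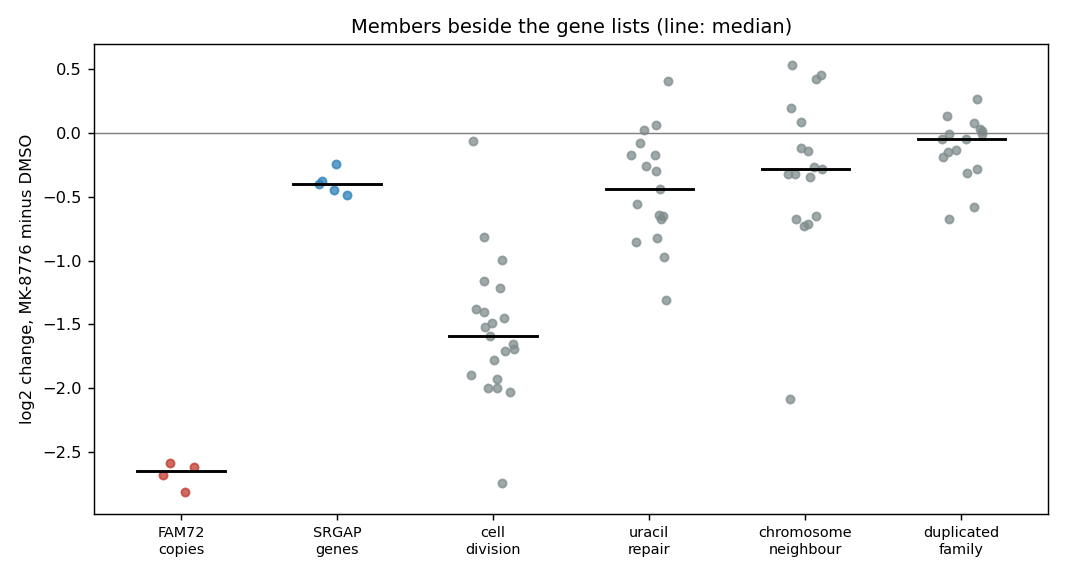
Log2 change, MK-8776 minus DMSO, of every measured gene in each group, with a line at the group's median; points are spread sideways only for legibility. The medians are -2.64 for the FAM72 copies, -0.40 for the SRGAP genes and -1.59 for cell division. They are -0.44 for the uracil repair list (APOBEC3B included), -0.28 for the chromosome neighbours and -0.05 for the duplicated families.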

How the data were processed

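Expression was measured on 4 arrays, 2 from NB4-R4 cells given MK-8776 and 2 from cells given DMSO. The deposited values are log2 expression per feature, made by the authors with RMA on build hg38, per the submitters' processing notes. The sources used here name no version or settings, and the log2 scale was taken from the values (2.16 to 18.54). RMA makes arrays alike in distribution, so changes are relative to other genes. Scanner files were not used here, and the number of arrays limits the precision.

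Of 21448 features, 17709 had exactly 1 platform symbol, 0 had several and 3739 had none. All 17709 matched a RefSeq gene table (GRCh38.p14). The feature with the highest mean was kept, leaving 17687 genes. Values were fitted with limma 3.58.1 in R 4.3.3 (lmFit, eBayes, two-sided) with Benjamini-Hochberg adjustment over 17687 genes and a threshold of 0.05, after a check on simulated data. Alternatives were quantile normalization, median centring, a variance trend, features above the median level, all features, a replicate block and leaving out each array.

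The members and lists (cell division, uracil repair, chromosome neighbours within 500 kb, duplicated families, lineage markers) were chosen with earlier results of these data known. Beyond the 9 members, the text names up to 4 genes of each list past the threshold, by size of change, or 2 where none passed, and 5 genes most like FAM72 and SRGAP2 in pattern. UNG, the other glycosylases, NOTCH2NLA, EIF2D, RAB7B, SLC41A1, CD79A and HBB were chosen after their values were seen. So were the genes that did not pass among cell division genes. Motif matches were exact. A further planned list is not reported here.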

Additional observations from a re-analysis of the deposited data

How the results depend on the processing

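The FAM72 copies stayed lower in MK-8776 after quantile normalization and median centring. FAM72A, FAM72C and FAM72D were picked for that fall, so nothing is read from this. A variance trend, all features tested, only features above the median level and the replicate block leave each change as it was. They alter only its spread or adjustment. The SRGAP genes had no call under any of these settings, but SRGAP1 and SRGAP3 were not tested among features above the median level. Over all genes the limma fit called 652, against 1185 with a variance trend and 309 with the replicate block. With each array left out it called 0 to 34 genes, and 0 to 4 FAM72 copies, 0 to 1 cell division genes, 0 uracil repair genes and 0 chromosome neighbours, with at least 1815 genes at an unadjusted p under 0.05 in each such fit. The uracil repair list had 1 call after quantile normalization, 1 after median centring, 1 with all features tested, 1 with the replicate block and 4 with a variance trend, against 2. With the replicate block the cell division list had 12 calls, against 19. With all features tested the chromosome neighbours had 0 calls (3 at an unadjusted p under 0.05), against 1. The cause of these shifts was not tested, beyond the larger number of tests with all features and the fewer arrays in the reduced fits. The numbers 1 and 2 stand in both groups, but the labels tie them to no shared culture or day. Deviations of same-numbered arrays correlated at 0.139 over genes, with only 2 pairs, so the block is an alternative only.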
